A study of Rattus norvegicus with 3 samples.

Results

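Fibroblast growth factors (FGFs) and their receptors were followed in rat vestibular nuclei, where nerve fibres of the balance organ end in the brainstem, after the left balance organ (labyrinth) had been taken out. The set was 10 genes given by name: the secreted ligands Fgf1, Fgf2 and Fgf9, the receptors Fgfr1, Fgfr2 and Fgfr3, and the intracellular FGFs Fgf11, Fgf12, Fgf13 and Fgf14. Probes were found through the RefSeq accession that the array files give for each spot. This gave 10 probes for 9 of the 10 genes, among 10768 probes for 8899 genes that could be named on an array of 41012 probes. No probe matched Fgfr2 by accession, so Fgfr2 was not analysed here. Fgf2 had 2 probes, one on 10 spots and the other on 1 spot, and each of the other genes had 1 probe on 1 spot.

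Rats were adult Sprague-Dawley males weighing 200 to 250 g. The groups were the nuclei of the operated side 1 day after left labyrinthectomy, the same side 7 days after it, and the nuclei of control rats, which the labels call sham-operated while the protocol text calls them normal. Tissue of 3 rats was named for each group, and each group had 1 array, so RNA of several rats appears to have been pooled. With 1 array per group no difference between conditions could be tested and p-values are not reported. A difference of at least 2-fold between 2 arrays was used as a fixed size for counting, and it carries no error from animals or dissections.

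FGFs that leave the cell bind receptor tyrosine kinases on the cell surface together with heparan sulfate chains, and the receptors signal through adaptor proteins to the RAS-MAPK kinases, whose targets include inhibitors of the same pathway. In the adult brain Fgf2 is made largely by astrocytes and is known for its rise after injury, whereas Fgf1 and Fgf9 are made by many neurons. Fgf11, Fgf12, Fgf13 and Fgf14 are not secreted. They bind the inner tails of voltage-gated sodium channels and tune how neurons fire, and mutations of FGF14 cause an inherited ataxia in humans.

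The promoters of Fgf2, Fgf11 and Fgf14 are shown because these are the members with a probe at least 2-fold lower at day 7 than in sham and an entry in the RefSeq promoter table of GRCr8, in which Fgfr1 was not matched. Each line gives the 250 bases before the annotated start, from 5′ to 3′ on the strand of the gene, with capitals for the GC box GGGCGG on either strand.
Fgf2, chr2:122164204-122164453, plus strand: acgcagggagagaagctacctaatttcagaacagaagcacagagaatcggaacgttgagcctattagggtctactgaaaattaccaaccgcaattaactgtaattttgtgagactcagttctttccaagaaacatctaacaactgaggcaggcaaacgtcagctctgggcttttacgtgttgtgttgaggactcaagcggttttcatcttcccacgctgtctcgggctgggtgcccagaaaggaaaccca
Fgf11, chr10:55020657-55020906, minus strand: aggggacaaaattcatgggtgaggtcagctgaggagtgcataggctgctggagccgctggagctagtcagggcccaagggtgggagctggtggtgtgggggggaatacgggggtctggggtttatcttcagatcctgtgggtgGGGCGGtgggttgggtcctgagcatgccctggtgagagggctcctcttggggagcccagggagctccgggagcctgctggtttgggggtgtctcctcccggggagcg
Fgf14, chr15:108086413-108086662, minus strand: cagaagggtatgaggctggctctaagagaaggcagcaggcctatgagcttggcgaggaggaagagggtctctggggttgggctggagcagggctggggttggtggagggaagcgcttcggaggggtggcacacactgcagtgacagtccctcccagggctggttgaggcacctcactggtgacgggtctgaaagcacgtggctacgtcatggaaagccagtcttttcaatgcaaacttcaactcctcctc

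Among 27457 promoters of the same length, 32.4% held GGGCGG on at least 1 strand, and of the 9 members with an entry 4 did: Fgfr2, Fgfr3, Fgf11 and Fgf12. Fgf11 held 1 copy, and Fgf2 and Fgf14 held none. The EGR site, searched on both strands as GCGGGGGCG or GCGTGGGCG, occurred in 2.94% of all promoters and in Fgfr3 alone among the 9. A G after either EGR word completes a GC box, so the 2 motifs can overlap. The cyclic AMP element TGACGTCA (1.70% of promoters) and the TATA box TATAAA (13.1%) occurred in none of the 9. The share of G and C was 46.8% for Fgf2, 64.8% for Fgf11 and 59.2% for Fgf14, against a median of 52.0% over all promoters. A match is a description of letters only, and a gene may have other starts than the one in the table.

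Each level below is log2 of the processed intensity minus log2 of the array's own 75th percentile, so 0 is the 75th percentile of all non-control spots. Levels of genes are compared between arrays for 1 probe at a time. Sums over marker lists, the choice of a gene's brightest probe and splits by brightness do set levels of different probes together. The error beside a level is the one the scanner software gave for the spot, on the log2 scale, and it covers the reading of the spot only. All 10 probes were well above background in sham, and none was saturated on any array. The lowest level that counted as well above background was -5.59 at day 1, -5.55 at day 7 and -6.41 in sham, so dim genes could be followed further down in sham than after surgery. All 9 neuron, 9 astrocyte and 9 oligodendrocyte markers with a probe were well above background on every array, while of 5 cerebellar markers 2 were at day 1 and 1 at day 7, against 4 in sham. The summed level of these 5 was 2.99 at day 1 and 3.65 at day 7, against 2.34 in sham. Most of each sum came from 1 probe of Calb1, which lay above sham by 0.31 log2 at day 1 and 0.75 at day 7. Other measured Calb1 probes gave 0.56 and 0.29 at day 1, and 0.12, -0.39 and -0.07 at day 7. The sum therefore does not describe the list as a whole. Within an array the spots of 10-spot probes had a median SD of 0.07 at day 1, 0.08 at day 7 and 0.10 in sham.

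**Figure D1:**
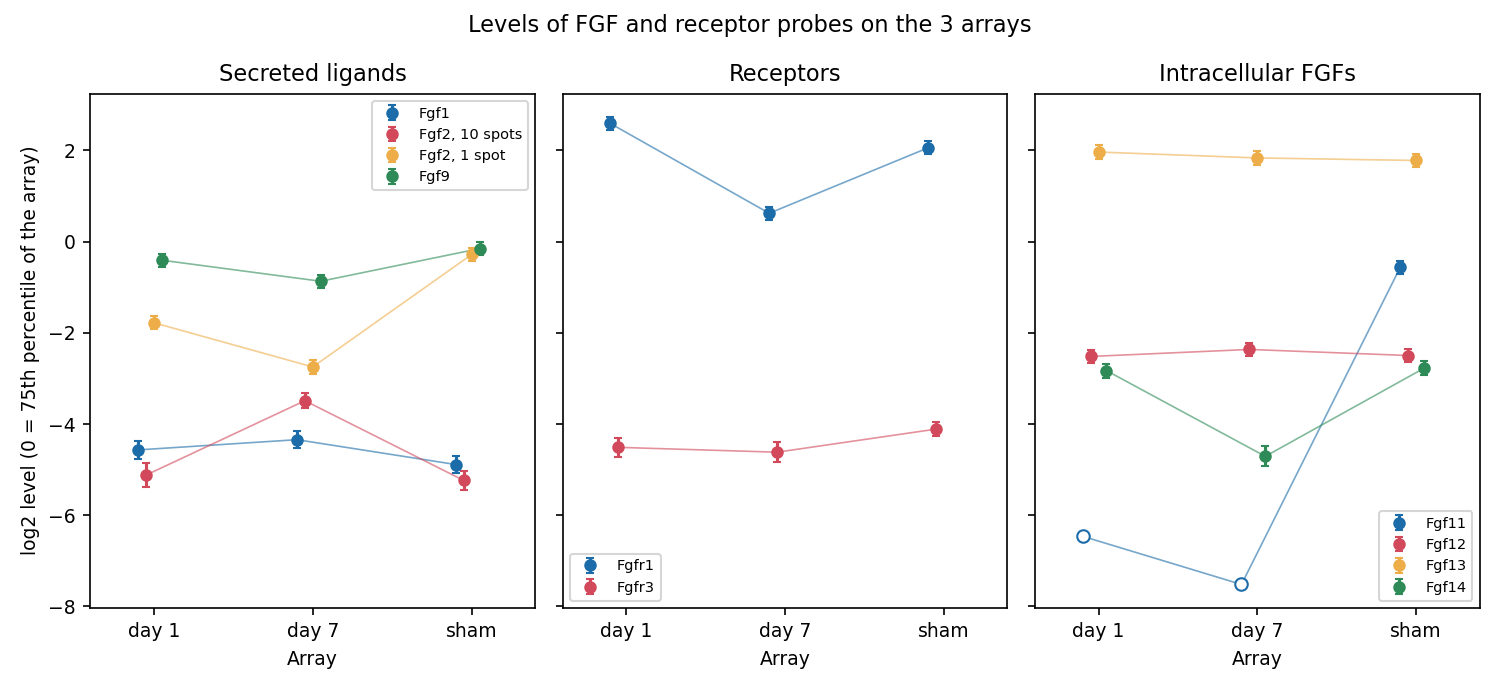
Log2 level (y axis, 0 is the 75th percentile of the array) of each probe on the day 1, day 7 and sham arrays (x axis), 1 point per array, with the scanner software's error as bars and open points where the probe was not well above background. Fgf11 stands at -0.56 in sham and is open on both arrays after surgery, while Fgf12 and Fgf13 stay nearly level.

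Among the secreted ligands, Fgf1 and Fgf9 stayed within 2-fold of sham on both days, and Fgf2 gave opposite answers from its 2 probes. Fgf1, the acidic FGF that binds all FGF receptors, had a level of -4.57 ± 0.20 at day 1 and -4.34 ± 0.19 at day 7, against -4.89 ± 0.18 in sham. The order was day 7, day 1, sham, from high to low, but the error ranges of day 7 and day 1 overlapped, and so did those of day 1 and sham. Its log2 fold was 0.32 at day 1 and 0.54 at day 7. Fgf9, a ligand of neurons and glia, had a level of -0.41 ± 0.14 at day 1 and -0.87 ± 0.14 at day 7, against -0.15 ± 0.14 in sham. Both days were below sham, by -0.25 log2 at day 1 and -0.72 at day 7, and day 7 was the lowest array, while the error ranges of day 1 and sham overlapped. Of all measured genes, 27.4% were at least as low at day 1 and 10.1% at day 7.

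Fgf2, the basic FGF, was lower after surgery by the probe on 1 spot and higher at day 7 by the probe on 10 spots. The 1-spot probe had an intensity of 1527 at day 1 and 845 at day 7, against 4682 in sham, and levels of -1.78 ± 0.15 at day 1 and -2.75 ± 0.15 at day 7, against -0.28 ± 0.14 in sham. It was 2.82-fold lower at day 1 and 5.53-fold lower at day 7 than in sham (log2 folds -1.50 and -2.47). The 10-spot probe had a level of -5.12 ± 0.14 at day 1 (SD of 10 spots) and -3.49 ± 0.05 at day 7 (10 spots), against -5.24 ± 0.20 in sham (9 spots after 1 outlier spot was left out). Its mean intensity was 151 at day 1 and 506 at day 7, against 152 in sham. By this probe day 7 was 3.36-fold above sham (log2 fold 1.75), and day 1 differed from sham by 0.12. The scanner error of these log2 folds was 0.26 at day 7 and 0.34 at day 1. Their standard errors from the spots, 0.07 at day 7 and 0.08 at day 1, cover repeat readings of 1 sample on each array only.

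The spots of the 10-spot probe did not overlap between day 7 and the other arrays. They ran from -3.59 to -3.43 at day 7, against -5.32 to -4.84 at day 1 and -5.71 to -5.08 in sham, so day 1 and sham overlapped. Spots are repeat readings within an array, so their gap carries no error from animals or dissections. Both Fgf2 probes carry the same RefSeq accession. The log2 folds of the 2 probes lay 1.61 apart at day 1 against sham and 4.21 apart at day 7 against sham. Among 1121 genes with at least 2 measured probes at day 7, the 2 brightest probes lay a median of 0.41 apart, and 5 genes, Fgf2 among them, differed by as much as Fgf2 or more. Rules that give a gene 1 value therefore give Fgf2 a different sign depending on the probe.

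**Figure D2:**
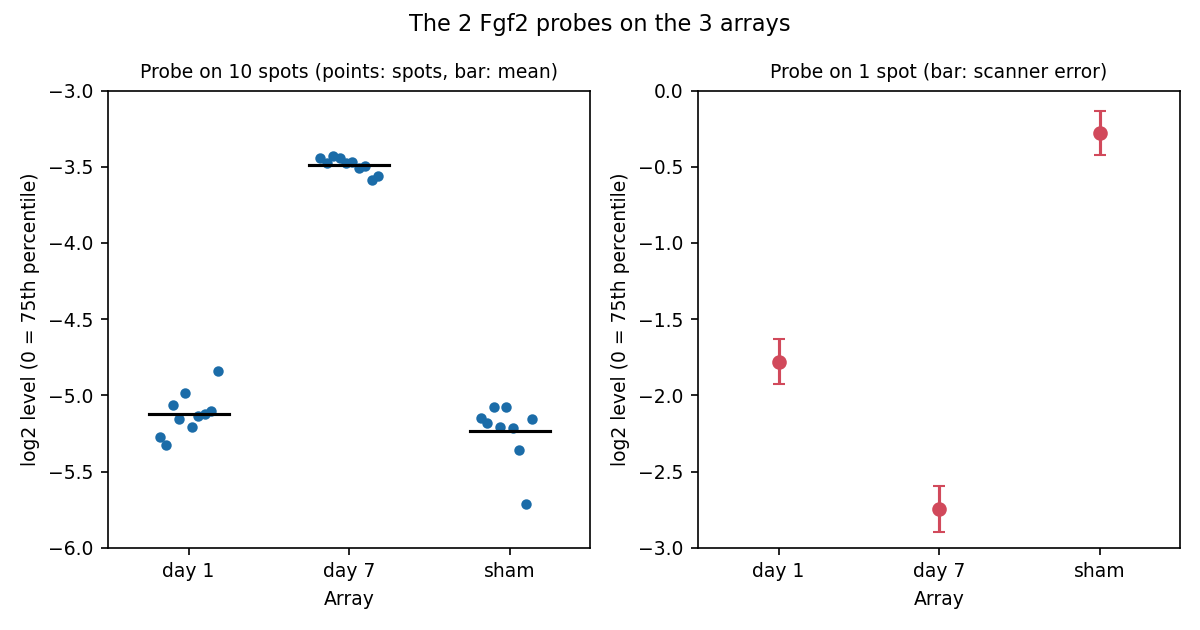
Log2 level of the 10-spot Fgf2 probe (left, 1 point per spot and a bar at the mean) and of the 1-spot probe (right, bar for the scanner software's error) on the day 1, day 7 and sham arrays. The 10-spot probe is highest at day 7 (-3.49) and the 1-spot probe lowest there (-2.75).

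Nudt6 is transcribed from the strand opposite Fgf2, and the 2 genes overlap at their ends in the GRCr8 annotation. It was looked at after the Fgf2 values were seen. Its 1 probe had a level of -2.35 at day 1 and -2.78 at day 7, against -1.30 in sham. The log2 fold was -1.05 at day 1 and -1.47 at day 7, so Nudt6 lay below sham on both days, as the 1-spot Fgf2 probe did and the 10-spot probe did not. The stretch of transcript that each probe reads was not used here, and a part of Nudt6 RNA in the Fgf2 signal was not tested. Astrocyte markers, set beside Fgf2 because astrocytes make it, had a median log2 fold of -0.00 at day 1 and 0.12 at day 7 over 8 measured genes. Their summed level, in units of the array's 75th percentile over 9 genes, was 28.7 at day 1 and 27.1 at day 7, against 27.4 in sham. None of the 9 was at background on any array. A large part of the sum was Gja1, at levels of 3.59 at day 1 and 3.44 at day 7, against 3.44 in sham. Gja1 was left out of the measured genes because of saturation, which can hide a difference between arrays. Single astrocyte genes differed more. The calcium-binding protein S100b was at 3.19 at day 1 and 1.89 at day 7, the water channel Aqp4 at 0.05 and 1.25, and the filament Gfap at -0.09 and -0.26. Fewer cells of a type and less RNA per cell cannot be told apart in tissue RNA.

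Of the receptors, Fgfr1 lay below sham at day 7 and Fgfr3 differed little. Fgfr1, the receptor that neurons carry most widely, had an intensity of 31612 at day 1 and 8737 at day 7, against 23697 in sham. The levels were 2.59 ± 0.14 at day 1 and 0.62 ± 0.14 at day 7, against 2.06 ± 0.14 in sham, so day 1 was the highest array and day 7 the lowest. Fgfr1 was 1.45-fold higher at day 1 (log2 fold 0.53) and 2.70-fold lower at day 7 (log2 fold -1.44) than in sham. Between the days it was 3.92-fold lower at day 7 than at day 1 (log2 fold -1.97), and 1.56% of 6142 measured genes were at least as low. Fgfr3, a receptor of astrocytes in adult brain, had levels of -4.51 ± 0.21 at day 1 and -4.62 ± 0.22 at day 7, against -4.11 ± 0.16 in sham. Day 1 and day 7 differed by less than the scanner error, and both lay below sham, by -0.40 at day 1 and -0.51 at day 7.

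Motor neuron markers had the same order of arrays as Fgfr1. All 3 measured markers were at least 2-fold higher than in sham at day 1, with Slc18a3 at 1.82, Slc5a7 at 1.78 and Isl1 at 1.02 log2. At day 7 Slc18a3 (-1.66) and Slc5a7 (-1.43) were at least 2-fold lower and Isl1 was at -0.32. Of all measured genes, 8.26% were at least 2-fold higher at day 1 and 5.73% at least 2-fold lower at day 7. The summed level of the 3 genes was 3.72 at day 1 and 0.384 at day 7, against 1.09 in sham, and all 3 were well above background on every array. Zic1, from the cerebellar list, also was highest at day 1 (log2 fold 1.16), and at day 7 it was at least 6.64-fold lower than in sham. The rest of that list did not show this order. Calb1 was at 0.31 at day 1 and 0.75 at day 7. Neurod1 was at least 1.81-fold lower at day 1 and at least 1.76-fold lower at day 7. Car8 was well above background in sham alone, and Gabra6 on no array. The part of motor neuron or cerebellar RNA in the Fgfr1 and Fgfrl1 values was not tested.

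The intracellular FGFs split into Fgf12 and Fgf13, which hardly differed between the arrays, Fgf14, which was lower than in sham at day 7, and Fgf11, which was lower on both days. Fgf13, a partner of sodium channels and of microtubules in neurons, had levels of 1.97 ± 0.14 at day 1 and 1.84 ± 0.14 at day 7, against 1.78 ± 0.14 in sham. Fgf12, another sodium channel partner, had levels of -2.52 ± 0.15 at day 1 and -2.36 ± 0.15 at day 7, against -2.50 ± 0.15 in sham. The 3 arrays spanned 0.19 log2 for Fgf13 and 0.15 for Fgf12. For both genes the error ranges of all 3 arrays overlapped, so the arrays have no order.

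Fgf14, which holds sodium channels ready to fire in cerebellar and other neurons, was low at day 7 alone. Its intensity was 738 at day 1 and 217 at day 7, against 832 in sham. The levels were -2.83 ± 0.15 at day 1 and -4.71 ± 0.22 at day 7, against -2.77 ± 0.15 in sham, so day 1 and sham differed by less than the scanner error and day 7 lay well below both. Fgf14 was 3.82-fold lower than in sham at day 7 (log2 fold -1.94), where 1.36% of 6261 measured genes were at least as low, and 3.68-fold lower at day 7 than at day 1. The local background of this spot was 55 at day 1 and 74.5 at day 7, against 54 in sham, beside spot signals of 891 at day 1 and 344.5 at day 7, against 1028 in sham.

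Fgf11 was detected in sham and not after surgery. The spot had an intensity of 59.4 at day 1 and 30.9 at day 7, neither well above background, against 3860 in sham. Its raw signal was 135 at day 1 and 101.5 at day 7, against 4273 in sham, over local backgrounds of 45 at day 1 and 44 at day 7, against 44 in sham. The sham level was -0.56 ± 0.14, and after surgery only an upper limit can be given. Against the higher of the spot's own level and the lowest level well above background, Fgf11 was at least 32.6-fold lower at day 1 and at least 31.7-fold lower at day 7 than in sham. The days cannot be ordered against each other, since the spot was at background on both. This rests on a single spot per array with no second probe.

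Neuronal markers, set beside the intracellular FGFs because neurons make them, had a median log2 fold of -0.23 at day 1 and -0.38 at day 7 over 8 measured genes. None was past 2-fold at day 1, against 12.6% of all measured genes. At day 7 the neurofilaments Nefh (-2.30), Nefl (-1.61) and Nefm (-1.17) were at least 2-fold lower, as were 5.73% of all measured genes. The other 5 measured genes were within 2-fold at day 7, with Snap25 at 0.47, Stmn2 at 0.20, Syt1 at -0.13, Map2 at -0.26 and Tubb3 at -0.50. The summed level of 9 genes was 36.9 at day 1 and 28.7 at day 7, against 37.7 in sham. Without the 3 neurofilaments the sum of the other 6 was 24.6 at day 1 and 23.2 at day 7, against 22.1 in sham. As summed, the lower value at day 7 thus lay in the neurofilaments. The largest share of the other 6 was Eno2, at levels of 3.66 at day 1 and 3.53 at day 7, against 3.49 in sham. Eno2 was left out of the measured genes because of saturation, and a saturated spot can hide a difference between arrays. The part of neuronal RNA in the Fgf14 and Fgf11 values was not tested.

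Counted together, 1 of 8 measured members was past 2-fold at day 1 and 3 of 8 at day 7, all lower than in sham. At day 1 the member was Fgf2 by its brighter probe. Over all 6292 measured genes 12.6% were past 2-fold at day 1, 4.37% lower and 8.26% higher (275 and 520 genes, and 356 and 412 without scaling the arrays). The median log2 fold of the 8 members was -0.04, against 0.00 for all genes. At day 7 the 3 were Fgf2 by its brighter probe, Fgf14 and Fgfr1, and 16.9% of 6261 genes were past 2-fold, 5.73% lower and 11.1% higher (359 and 698 genes, and 417 and 521 after cyclic loess). Dim genes passed 2-fold more often, with 25.6% of the dimmer 3130 genes against 8.18% of the brighter 3131 at day 7. The median was -0.61, against 0.05 for all genes. At day 7 against day 1, 2 of 8 members were lower (Fgfr1 and Fgf14), with 11.9% of 6142 genes past 2-fold, 5.32% lower and 6.56% higher (327 and 403 genes, and 268 and 519 without scaling). Fgf11, with a bound only, is in none of these counts. With 8 members a count of 3 rests on few genes, and both days share the sham array. With the 10-spot probe for Fgf2, chosen after the values were seen, none of 8 members was past 2-fold at day 1, and at day 7 2 were lower and 1 higher than in sham.

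**Figure D3:**
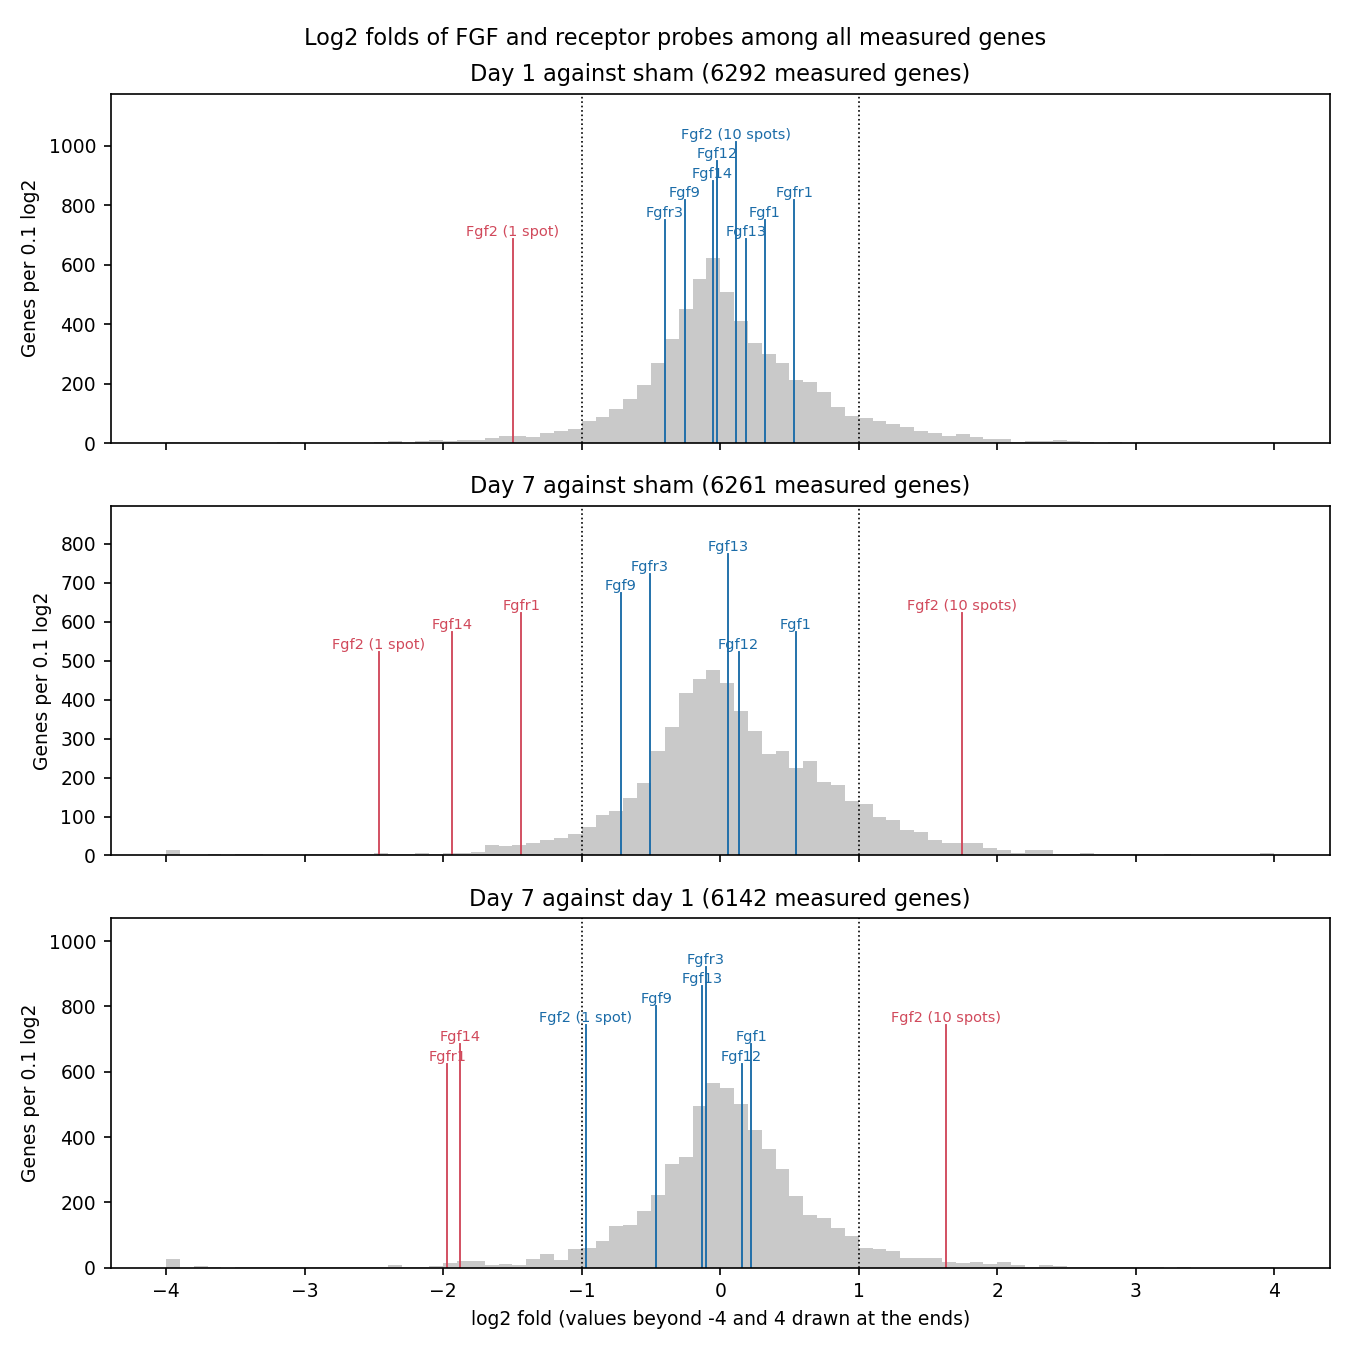
Histograms of the log2 folds of all measured genes (x axis, 0.1 per bar, values beyond -4 and 4 drawn at the ends; y axis, number of genes) for each comparison, with a line for each measured FGF or receptor probe, red where it is past 2-fold (dotted lines). At day 7 against sham the 1-spot Fgf2 probe (-2.47), Fgf14 (-1.94) and Fgfr1 (-1.44) lie on the low side and the 10-spot Fgf2 probe (1.75) on the high side.

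For each member whose representative probe was measured on all 3 arrays and spanned at least 1 log2 unit, the 3 genes most like it were sought. Likeness was the distance between genes in the pair of log2 folds at day 1 and at day 7 against sham, over 3441 genes measured on the 3 arrays and brighter than the median detected probe on at least 1. The nearest to Fgf2, by its brighter probe, were the serotonin receptor Htr1b (distance 0.18), Apold1 (0.32) and Syt11 (0.45). The nearest to Fgfr1 were the G protein subunit Gna14 (0.08), the synuclein Sncg (0.19) and the serotonin receptor Htr1d (0.19). The nearest to Fgf14 were the activin subunit Inhba (0.07), the transcription factor Nr2f2 (0.15) and the secreted matrix protein Spp1 (0.26). With 3 arrays such likeness is a description only.

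Of 15 other FGF ligands, 14 had a probe, and 4 of these, Fgf5, Fgf16, Fgf20 and Fgf23, were not well above background on any array. At day 1 against sham 8 were measured, and 12.6% of all measured genes were past 2-fold. Fgf6 (1.04 log2) and Fgf17 (1.03) were at least 2-fold higher, Fgf10 (-1.02) was at least 2-fold lower and 5 were within 2-fold, with a median of 0.36. At day 7 against sham 7 were measured, and 16.9% of all measured genes were past 2-fold. Fgf17 (1.41), known for patterning the midbrain and cerebellum of the embryo, was higher, while Fgf10 (-1.17) and Fgf18 (-1.11) were lower. The median was 0.38. The metabolic hormone Fgf21 was well above background at day 7 and in neither other array, and was at least 3.79-fold higher than in sham. Fgf8, a ligand of the embryonic midbrain, was likewise seen at day 7 alone and was at least 2.17-fold higher.

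**Figure D4:**
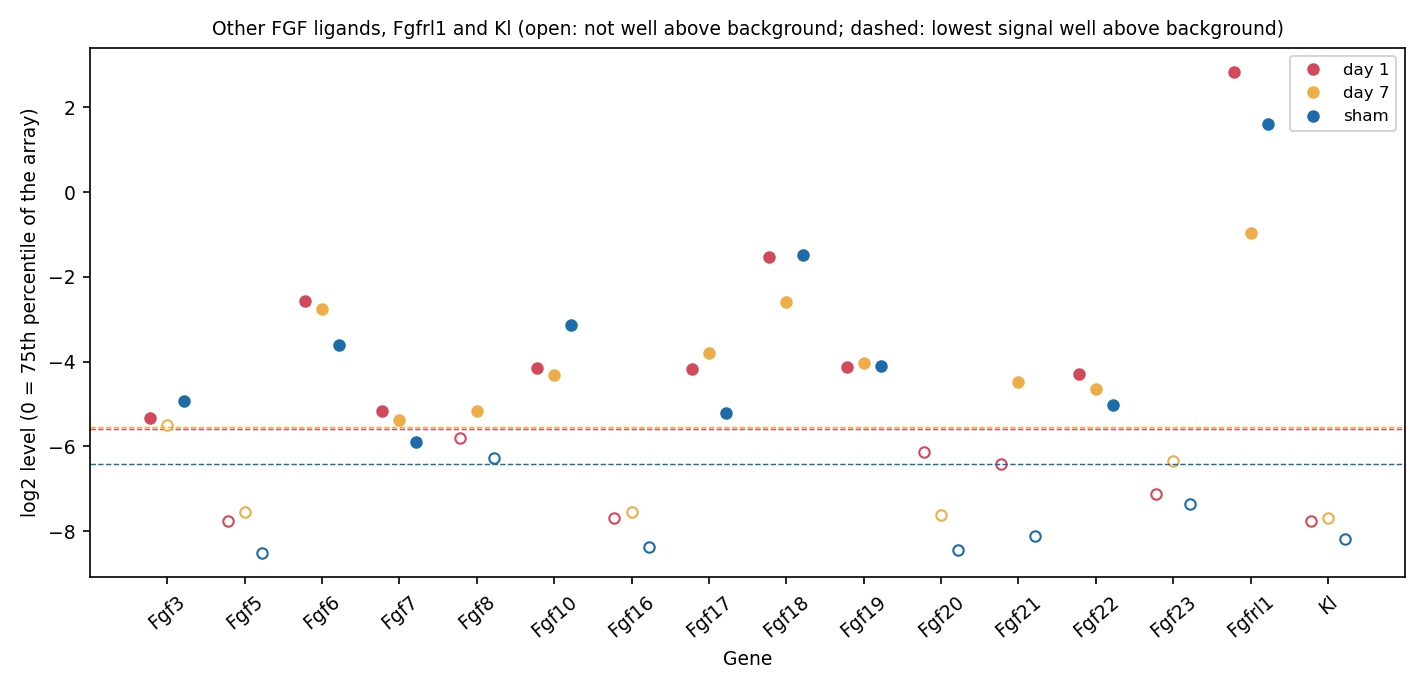
Log2 level (y axis, 0 is the 75th percentile of the array) of the other FGF ligands, Fgfrl1 and Kl (x axis) on the day 1, day 7 and sham arrays, with open points where a probe was not well above background and dashed lines at the lowest level well above background of each array. Fgf17 is lowest in sham, Fgf10 highest in sham, and Fgfrl1 lies at 2.84 at day 1 and -0.96 at day 7, against 1.62 in sham.

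Fgfrl1, a receptor-like protein that binds FGFs but lacks the kinase, had a log2 fold of 1.22 at day 1 and -2.58 at day 7 against sham, on 1 spot. Its levels were 2.84 at day 1 and -0.96 at day 7, against 1.62 in sham. Day 1 was the highest array and day 7 the lowest, as for Fgfr1. Kl, the co-receptor of endocrine FGFs, was not well above background on any array.

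Among heparan sulfate proteoglycans and FGF carriers, 13 of 22 had a probe. At day 1 against sham 2 of 9 measured genes were higher, 2 were lower and the median was 0.44. Over all measured genes 8.26% were higher and 4.37% lower. The cell-surface proteoglycans Gpc4 (-2.06) and Sdc3 (-1.55) were low, and Gpc3 (1.35, with 1.14 by another probe) and the FGF-binding protein Fgfbp1 (1.03) were high. At day 7 against sham 2 of 8 were higher, 1 was lower and the median was 0.32. Over all measured genes 11.1% were higher and 5.73% lower. Sdc1 (-3.30) was low, Gpc3 (1.55, with 1.46 by another probe) and the sulfatase Sulf2 (1.18), which trims heparan sulfate, were high, and Gpc4 was at least 4.32-fold lower. Gpc3 was thus above sham on both days by both of its probes.

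Among the adaptors and RAS-MAPK kinases, 13 of 20 had a probe. At day 1, counted by the brightest probe of each gene, 1 of 11 measured genes was past 2-fold, on the high side. Over all measured genes 12.6% were past 2-fold at day 1. The phospholipase Plcg1 was at 0.76 and the phosphatase Ptpn11 at -0.46 (-1.46 by another probe), with a median of -0.14. At day 7 none of 11 was past 2-fold, against 16.9% of all measured genes. Mapk3 (-0.85), Plcg1 (0.43) and Nras (-0.31) were farthest from 0, and the median was -0.12. Feedback inhibitors and targets of the pathway had a probe for 10 of 22 genes. At day 1, the inhibitor Spred2 (4.02) and the growth gene Myc (1.11) were higher and the transcription factor Egr1 (-1.76) lower, out of 10 measured with a median of -0.49. At day 7 the FGF-induced inhibitor Spry2 (2.22) was the 1 gene of 9 past 2-fold, followed by the MAPK phosphatase Dusp6 at -0.88 and Myc at 0.84, and the median was 0.31. Spry2 lay below sham at day 1 (-0.87). Spred2 was not well above background at day 7.

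Sodium channels and other partners of the intracellular FGFs had a probe for 18 of 19 genes. At day 1, 1 of 15 measured genes was higher and 1 was lower, with a median of 0.07. Over all measured genes 8.26% were higher and 4.37% lower. The calcium channel Cacna1a stood at -6.76, the sodium channel Scn9a at 1.30 (1.99 by another probe) and the tubulin Tubb3 at 0.69. The Cacna1a values of both days rest on 1 spot per array, with no other measured probe. At day 7, 2 of 16 were higher, 3 were lower and the median was 0.13. Over all measured genes 11.1% were higher and 5.73% lower. The sodium channel Scn4a (1.22) was among the higher genes, and Cacna1a (-6.70) and Scn8a (-1.46), the sodium channel of nodes and axon starts, were among the lower ones. Cell adhesion proteins that can act on FGF receptors had none of 4 past 2-fold on either day. Of all measured genes, 12.6% were past it at day 1 and 16.9% at day 7. At day 1 their values were -0.42 for Ncam1, -0.13 for L1cam, 0.11 for Cdh2 and -0.10 for Nrcam (0.85 by another probe). At day 7 Ncam1 was at 0.47, Nrcam at -0.33 (0.27 by another probe) and L1cam at -0.20.

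**Figure D5:**
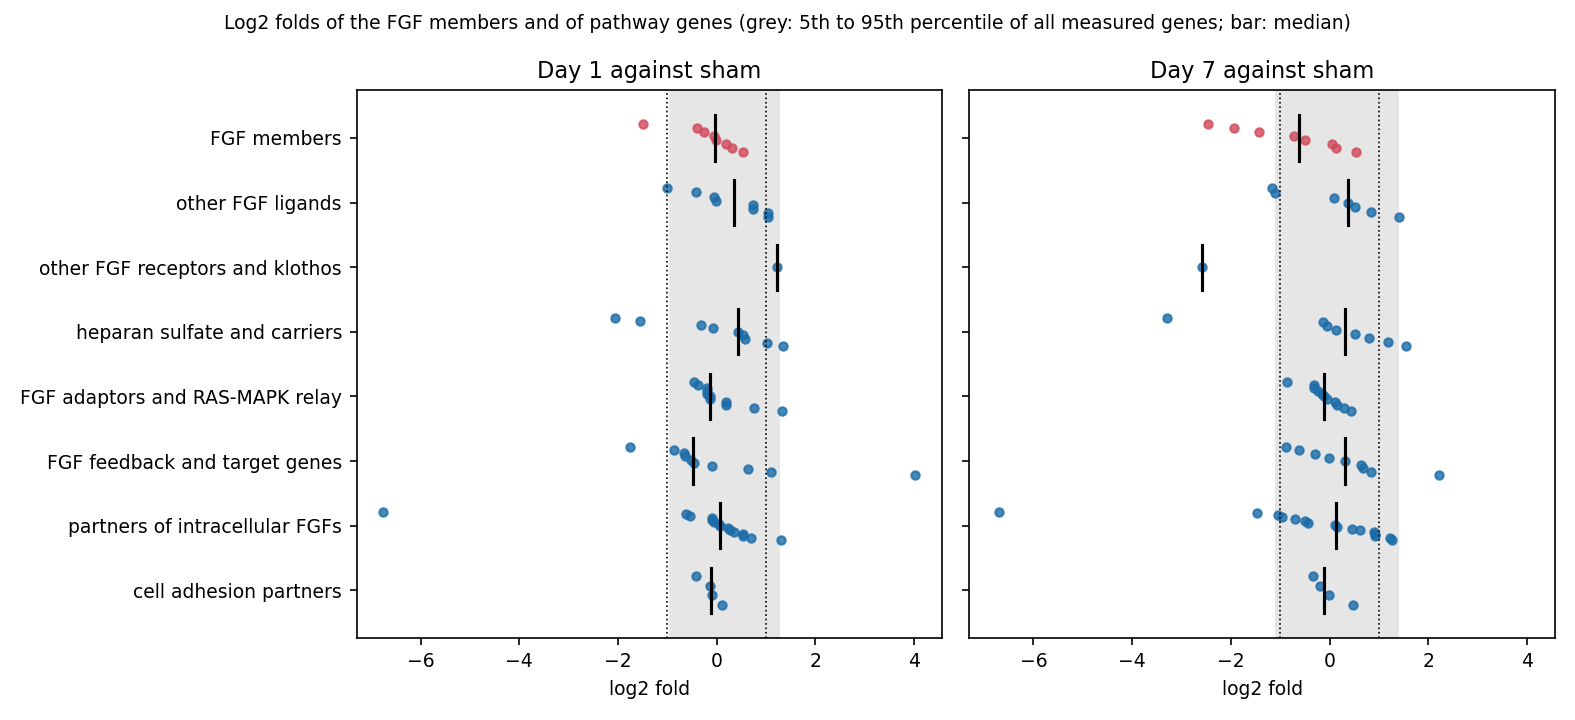
Log2 folds at day 1 (left) and day 7 (right) against sham for the FGF members (red) and 7 lists of pathway genes (blue), 1 point per measured gene, with a bar at the median, the 5th to 95th percentile of all measured genes in grey and dotted lines at 2-fold. The median of the members is -0.04 at day 1 and -0.61 at day 7, and Cacna1a is the point near -6.7 in the row of partners.

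Over the 7 pathway lists together, without the members, 14 of 58 measured genes were past 2-fold at day 1 against sham (24.1%, against 12.6% of all genes) and 13 of 56 at day 7 (23.2%, against 16.9%). At day 1 9 were higher and 5 lower, and at day 7 6 were higher and 7 lower. The larger number of higher genes at day 1 depended on the scaling: 5 were higher and 5 lower with quantile normalization, with cyclic loess and without scaling, and 5 higher and 4 lower with another background correction, normexp. Markers of other cells also differed between the arrays. All 9 oligodendrocyte markers lay below sham at day 7 by their brightest probe, with a median of -0.33 against -0.15 at day 1, and Mbp (-1.29) was the one past 2-fold. The summed level of the 9 was 26.5 at day 1 and 22.3 at day 7, against 31.2 in sham. Choroid plexus markers had a median of 0.43 over 4 measured genes at day 1 and 1.72 over 3 at day 7. Kcnj13 (1.55 at day 1) was not measured at day 7, so the medians cover different genes. Folr1 (0.75 at day 1, 1.72 at day 7) and Sostdc1 (0.10 and 1.86) lay above sham, and Ttr (-1.20 and -0.10) lay below it. The summed level of the choroid plexus list was 0.591 at day 1 and 1.29 at day 7, against 0.717 in sham. Microglia markers summed to 4.69 at day 7, against 3.55 in sham, over 7 genes. The day 1 sum of 2.14 lacks P2ry12, which had no usable level on that array. P2ry12 had levels of 0.20 at day 7 and 0.07 in sham, so the day 1 sum cannot be set against the others. Vessel and meningeal markers summed to 3.62 at day 1 and 4.43 at day 7, against 3.21 in sham. The part of these cells in the values of the members and of the pathway genes was not tested.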

How the data were processed

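RNA of rat vestibular nuclei was hybridised in 1 colour (Cy3) to 3 Agilent rat arrays, 1 per group. Per the file headers, the deposited scanner files come from Agilent Feature Extraction 10.7.3.1 and give a processed intensity per spot on a linear scale after background subtraction, not scaled between arrays, with an error and flags per spot. The authors' deposited series table holds the same intensity for 34687 probes, equal within 0.1 percent for 99.7% of the values of each array. Its filter is not stated in those headers.

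Here log2 of the processed intensity was centred on each array's 75th percentile (5242 at day 1, 5676 at day 7 and 5692 in sham). Outlier-flagged spots were left out and spots of a probe averaged. Probes were named through RefSeq accessions in GRCr8. A gene was represented by its brightest probe by mean level, and counted as measured where both arrays of a comparison had it well above background and unsaturated. The members and lists were chosen with earlier results of these data known. Named genes are all member probes and, per list and day, up to 3 measured genes farthest from 0, with bounds of at least 2-fold. Folds and calls were checked on simulated arrays. Alternatives used limma 3.58.1 (quantile, cyclic loess, and normexp on the spot median, since the files used give no mean signal). Python 3.11.15 and R 4.3.3 were used. Some genes of the lists are counted but their values are not reported here.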

Additional observations from a re-analysis of the deposited data

Results flagged for a closer look

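Of 39 genes described, 7 lay on opposite sides of sham at day 1 and day 7, each by more than 0.12 log2 on either day. That size is the median SD of spots of 10-spot probes, combined over the 2 arrays compared. Fgfr1, Fgfrl1, Sdc1, Tubb3 and Spry2 were each read on 1 spot, so it is not their own spread. With 1 array per group these differences were not tested, and both days share the sham array. Among the members this held for Fgfr1, at 0.53 at day 1 and -1.44 at day 7, a difference of -1.97 between the days. Fgfrl1 was at 1.22 and -2.58 in the same order, a difference of -3.80. Sdc1 was at 0.52 and -3.30, a difference of -3.82. Tubb3 was at 0.69 and -0.50, a difference of -1.18. The other three lay below sham at day 1 and above it at day 7. Spry2 was at -0.87 and 2.22, a difference of 3.096. Egr1 was at -1.76 and 0.31, a difference of 2.06. Ncam1 was at -0.42 and 0.47, a difference of 0.89.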

How the results depend on the processing

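No paired analysis was possible because each group had 1 array, and no replicate could be left out. Under 10 alternatives and 1 more added after the values were seen, Fgfr1 stayed between -1.48 and -1.37 and Fgf14 between -2.09 and -1.67 at day 7 against sham, all past 2-fold where measured. Both genes have 1 probe on 1 spot, so only the scaling and background settings could move these values. The filter, outlier, saturation and probe-choice settings could only keep or drop the gene, and say nothing on how stable its value is. Fgf2 depended on the probe. With the probe on most spots its log2 fold turned to 0.12 at day 1 and 1.75 at day 7 against sham. The number of members past 2-fold at day 1, 1 in the report, was 0 with that probe and 0 with the mean of all probes, and 2 with no filter on dim probes, which lets in Fgf11. At day 7 against day 1 it was 1 instead of 2 with only brighter probes, where Fgf14 is left out. Pathway genes past 2-fold at day 1 numbered 9 with normexp and 8 with only brighter probes, instead of 14, and fewer genes (37 instead of 58) are tested in the latter setting. The cause was not tested for normexp. Over all genes the counts at day 1 fell too, from 520 higher and 275 lower of 6292. They were 405 and 200 of 6292 with normexp, and 173 and 116 of 3313 with only brighter probes. The pathway share was 15.5% with normexp and 21.6% with only brighter probes, instead of 24.1%. Leaving the arrays unscaled moved the all-gene median to -0.12 at day 1 against sham and to 0.15 at day 7 against day 1. Signal over background limits Fgf11 after surgery, and single spots limit every member, Fgf2 included, since its counted value comes from its 1-spot probe.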
